A study of Mus musculus with 5 samples.

Results

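The nuclear genes for subunits of respiratory complexes III, IV and V and for cytochrome c were followed in the embryonic mouse heart at E10.5, the stage at which chambers form from the looped tube. Members were all probe sets whose symbol in the platform annotation starts with Uqcr, Cox5, Cox6, Cox7, Cox8 or Atp5, together with Cyc1 and Cycs. This name rule gave 38 probe sets, 1 for each of 38 genes, among 23279 named genes on the array. They comprised 9 entries of complex III, 15 of complex IV, 13 of complex V and cytochrome c itself, and 2 of them, Uqcrh-ps1 and Atp5c1-ps, are annotated pseudogenes. Subunit genes without a probe set under these names, such as Uqcrb, Cox7c and Atp5g1, and the subunits encoded in mitochondrial DNA were not analysed here.

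The comparison was between 2 arrays of KO hearts and 3 arrays of Control hearts, all of them from untreated embryos of the same stage. The labels give the genotypes only as KO and Control, and the title of the series names LRRFIP2 and the response to hypoxia. Neither the deleted part of the gene, any driver of the deletion, the strain nor the genotype of the Control embryos is given in the sources used here. Nothing says whether hearts were pooled, so p-values reflect only the spread among these 5 samples, which may be technical in part. Lrrfip2 itself had a log2 level of 6.36 and 6.22 in the KO arrays, against 7.33, 8.07 and 8.08 in the Control arrays.

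Values are log2 levels after RMA, a procedure that corrects the background of each array, equalises the distributions of the arrays and summarises the probes of a set. A log2 difference is KO minus Control throughout. Levels of different probe sets cannot be ranked against each other, so each gene is compared only with itself across arrays. Array medians lay between 5.07 and 5.11. The markers of cardiomyocytes were present on every array, with 16 of 16 above the level of 4.44 under which genes were left out as dim. KO replicate 2 stood apart: the summed level of 16 liver and gut endoderm markers was 12.99 there on the log2 scale, against 8.58 in KO replicate 1 and 8.58 to 8.68 in the Control arrays. KO replicate 1 stood apart in other lists. The summed level of 11 white blood cell markers was 9.24 there, against 8.53 in KO replicate 2 and 8.49 to 8.60 in the Control arrays, although Adgre1, Ptprc and Cd14 were dim on every array. The sum of 8 mesenchyme markers was 9.81 in KO replicate 1, against 10.78 in KO replicate 2 and 10.19 to 10.67 in the Control arrays, and that of 8 endothelial markers was 11.75, against 11.43 in KO replicate 2 and 11.20 to 11.48 in the Control arrays. Results are therefore also given without either KO array where it matters. In whole hearts, fewer cells of a type and less RNA per cell cannot be told apart.

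Complex III passes electrons from ubiquinol to cytochrome c, a small soluble haem protein of the space between the mitochondrial membranes. Complex IV takes them from cytochrome c and reduces oxygen to water, and both complexes pump protons. Complex V, the ATP synthase, lets the protons flow back through a rotating ring and uses the rotation to make ATP. Several complex IV subunits come in alternative isoforms. Cox6a2, Cox7a1 and Cox8b are the forms of heart and skeletal muscle, Cox6a1, Cox7a2 and Cox8a are their widely expressed partners, and Cox6b2, Cox7b2 and Cox8c are known from testis.

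The DNA around the start sites of 3 members is shown because Cycs had the largest difference among the members, and because Cox8a and Cox8b are a pair of isoforms that lay on opposite sides of the Control arrays in KO replicate 1, although not in KO replicate 2. Sequences are from RefSeq (GRCm38.p6), 250 bases before to 50 bases after the start, on the strand of the gene, which is the minus strand for all 3. Capitals mark the matches to 4 short motifs on either strand. These are GCATGCG for nuclear respiratory factor 1, a regulator of many respiratory genes, CCGGAAG for ETS factors such as GABP, ACGTG for hypoxia-inducible factors, and the TATA box TATAAA. The letters GCATGCG were chosen after the Cycs promoter had been read.
Cycs, chr6:50566520-50566819: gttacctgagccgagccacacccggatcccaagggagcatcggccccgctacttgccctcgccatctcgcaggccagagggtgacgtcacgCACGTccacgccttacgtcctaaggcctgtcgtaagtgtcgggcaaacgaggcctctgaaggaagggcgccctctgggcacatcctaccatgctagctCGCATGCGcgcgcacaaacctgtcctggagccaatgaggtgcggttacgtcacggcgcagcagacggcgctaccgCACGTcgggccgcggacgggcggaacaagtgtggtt
Cox8a, chr19:7217567-7217866: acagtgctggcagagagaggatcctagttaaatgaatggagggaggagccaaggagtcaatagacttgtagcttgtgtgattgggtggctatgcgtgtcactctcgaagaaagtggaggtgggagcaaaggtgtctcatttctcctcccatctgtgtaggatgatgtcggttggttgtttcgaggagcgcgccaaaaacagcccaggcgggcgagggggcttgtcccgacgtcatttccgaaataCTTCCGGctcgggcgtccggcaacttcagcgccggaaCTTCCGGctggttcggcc
Cox8b, chr7:140900397-140900696: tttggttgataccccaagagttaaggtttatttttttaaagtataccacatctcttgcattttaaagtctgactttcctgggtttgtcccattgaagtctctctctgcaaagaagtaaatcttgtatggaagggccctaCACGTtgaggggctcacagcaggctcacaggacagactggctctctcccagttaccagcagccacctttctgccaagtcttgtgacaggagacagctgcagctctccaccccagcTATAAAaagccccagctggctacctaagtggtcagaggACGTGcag
Cycs holds GCATGCG on both strands in 1 overlapping run and ACGTG at 2 places. Cox8a holds CCGGAAG at 2 places near the start, where it appears as its reverse complement. Cox8b holds TATAAA, which lies within the 50 bases after the start, and ACGTG at 2 places, and neither of the other motifs.

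Promoters were found for 28 of the 38 members, and only the first listed promoter of each gene was counted. Their median number of CpG pairs, the dinucleotide that is dense in promoters of widely used genes, was 19, against 7 over the promoters of 27025 genes in the table. CCGGAAG was present in 8 of the 28 (28.6%), against 9.12% of all promoters. GCATGCG was present in 5 (17.9%), against 3.64%, and ACGTG in 8 (28.6%), against 19.7%. Another promoter of Atp5j held both GCATGCG and CCGGAAG and is not in these counts. TATAAA was present at any place in the window in 3 (10.7%), against 14.2%. The heart and muscle isoforms Cox7a1 and Cox8b had 7 and 2 CpG pairs, and the widely expressed Cox7a2 and Cox8a had 20 and 19. Of the other widely expressed isoforms of complex IV, Cox6a1 and Cox6b1 had 32 and 17, but Cox7b had 5, fewer than Cox7a1. Cycs is among the 5 members counted with the motif whose letters were chosen after its promoter had been read, so that share is not independent of the choice. Every motif here except the TATA box contains a CpG pair, and the members had more such pairs than all promoters. Whether their shares differ from those of promoters with as many CpG pairs was not tested. These matches describe the letters of a short window and do not show that a factor binds there.

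As a group, the members had slightly lower levels in the KO hearts. The filter on dim genes left 34 of the 38 members, and the 4 left out were both pseudogenes and the testis isoforms Cox7b2 and Cox8c. The pseudogene Uqcrh-ps1 had levels of 4.11 and 3.77 in the KO arrays, against 3.34, 3.43 and 3.69 in the Control arrays, and Atp5c1-ps was between 2.46 and 2.79 on all arrays. Of the 34, 31 (91.2%) had a lower mean in the KO arrays, where 55.2% of all 13967 genes tested did. After each array was centred on its median, or quantile normalization was run again, 29 of the 34 did. The median log2 difference was -0.15 over the members, against -0.02 over all genes tested. It was -0.18 in KO replicate 1 and -0.15 in KO replicate 2 when each array was taken alone. The same median for the Control arrays was 0.02, 0.04 and -0.05 in replicates 1, 2 and 3.

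No single member passed the threshold of 0.05 after adjustment over all genes in limma: 0 of 34 did, as did 0 of the 13967 genes (0%). Fits without KO replicate 1 or KO replicate 2 have no spread within the KO group, so genes passing this threshold are not counted. The median log2 difference over the members was -0.15 without KO replicate 1 and -0.18 without KO replicate 2. The counts of those fits at an unadjusted p, given below, rest on the spread of the Control arrays. At an unadjusted limma p under 0.05 there were 11 members, all with lower levels in the KO arrays, or 32.4% of those tested, against 5.49% of all genes. On the higher side there were 0 members, against 3.29% of all genes. There was 1 without KO replicate 1, against 7.28% of all genes, and 1 without KO replicate 2, against 12.7%. In 16 members (47.1%) both KO arrays lay below all Control arrays, against 13.1% of all genes, and 0 members lay wholly above, against 8.18%. The count of 11 on the lower side was 6 without Control replicate 1 (3.19% of all genes) and 6 without Control replicate 2 (3.39%). It was 8 without KO replicate 1 (9.72%), 9 without KO replicate 2 (14.7%) and 14 without Control replicate 3 (4.87%). Among genes with 5 different values it was 6 of 23 (8.31%), and after centring each array it was 7 (4.60%). Among 9312 brighter genes, above the 60th percentile, 10 of 33 members were lower at that p, against 7.03% of the genes. Subunits of one complex are not independent of each other, so these shares describe the list and are no test of it. The 33 subunit genes of complex I, a list chosen with earlier results known, gave similar counts: 28 were lower, 11 of them at an unadjusted limma p under 0.05, with a median of -0.15.

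**Figure D1:**
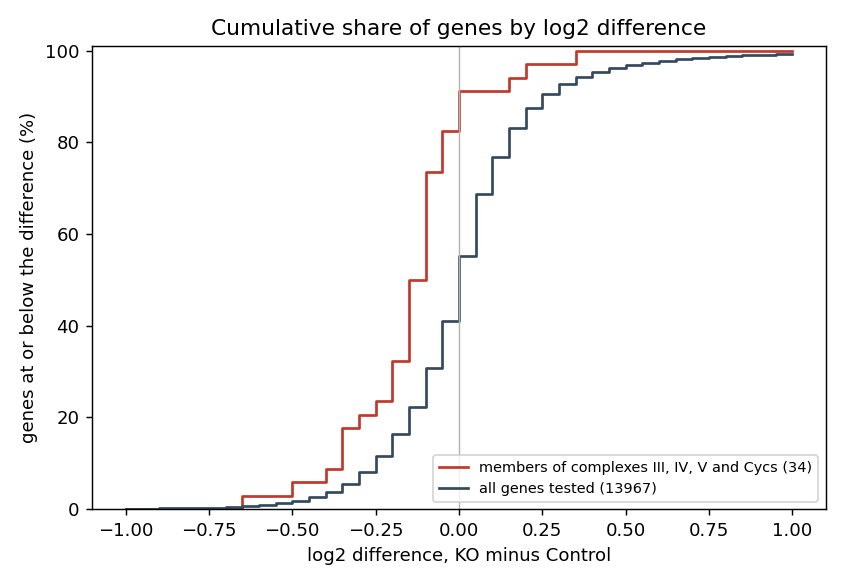
Cumulative share of genes (vertical axis, percent) at or below a given log2 difference, KO minus Control (horizontal axis), for the 34 tested members and for all 13967 genes tested, read in steps of 0.05. At a difference of 0 the members reach 91.2% and all genes 55.2%, and the members reach 100% at the step of 0.35.

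Cytochrome c showed the largest difference of the 34 tested members. Cycs encodes the form of somatic tissues, which carries electrons between complexes III and IV and, when released, helps to start apoptosis. Its level was 5.23 and 4.999 in the KO arrays, against 5.79, 5.92 and 5.71 in Control replicates 1, 2 and 3. Both KO arrays lay below every Control array, and the gap between the groups was wider than the range within either. The log2 difference was -0.69 ± 0.11 (SE), a level 38.0% lower, with a 95% confidence interval of -0.98 to -0.40. This probe set had a low signal. Its KO levels were near the array medians of 5.07 to 5.11, and it was not tested above the 60th percentile. The part of background in its difference could not be judged. The adjusted p was 0.355 in limma, and the gene ranked 105 of 13967 by p. Without KO replicate 1 the difference was -0.81 and without KO replicate 2 it was -0.57. Hccs, the lyase that attaches haem to cytochrome c, was lower by less, with levels of 7.30 and 6.93 in the KO arrays, against 7.26, 7.26 and 7.46 in the Control arrays, and its groups overlapped.

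Complex III had a median of -0.22, with lower KO means in 8 of its 8 tested members, against 55.2% of all genes tested. The 4 members with the smallest p had no overlap between groups, which is 50% of those tested, against 13.1% of all genes on the lower side. Uqcrc1, a core protein of the matrix side, had levels of 9.25 and 9.17 in the KO arrays, against 9.38, 9.40 and 9.49 in the Control arrays. Uqcr10, a small membrane subunit, had 10.504 and 10.451 in the KO arrays, against 10.658, 10.649 and 10.605 in the Control arrays. In both genes the difference was small but the spread within groups was smaller, at -0.22 ± 0.05 and -0.16 ± 0.04 (SE), with an adjusted p of 0.444 for each in limma.

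The members of complex III with the largest differences were both redox subunits on the path to cytochrome c, an order that changed when 1 array was left out. Uqcrfs1, the Rieske iron-sulphur protein, had levels of 7.76 and 7.88 in the KO arrays, against 8.21, 8.38 and 8.05 in the Control arrays, a log2 difference of -0.39 ± 0.12 (SE; limma adjusted p = 0.513). Cyc1, cytochrome c1, had 9.68 and 9.46 in the KO arrays, against 9.83, 9.91 and 10.10 in the Control arrays, a log2 difference of -0.38 ± 0.12 (SE; limma adjusted p = 0.534). With Cycs, these are consecutive carriers on the electron path, and their levels were 23.8%, 22.9% and 38.0% lower in the KO hearts. The last value is from the Cycs probe set, whose signal was low. Without KO replicate 2 the difference of Cyc1 was -0.26, smaller than those of Uqcrq (-0.40) and Uqcr11 (-0.32). Without Control replicate 3 it was -0.30, against -0.37 for Uqcrq. Whether the carriers differed from the other subunits of the complex was not tested.

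The other members of complex III overlapped between groups. Uqcrc2, the second core protein, had levels of 10.23 and 9.86 in the KO arrays, against 10.16, 10.20 and 10.16 in the Control arrays, so that KO replicate 1 was above all Control arrays and KO replicate 2 below them. Without KO replicate 2 its difference was 0.06 in place of -0.13. Uqcrh, the hinge protein that binds cytochrome c1, had 11.08 and 11.13 in the KO arrays, against 11.27, 11.40 and 11.12 in the Control arrays. Uqcrq differed by -0.26 (-0.12 without KO replicate 1) and Uqcr11 by -0.23 (-0.13 without KO replicate 1). In these last 3 genes Control replicate 3 was the lowest Control array and lay at or below KO replicate 2.

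Of 13 tested members of complex IV, 10 (76.9%, against 55.2% of all genes tested) had lower KO means, with a range of -0.53 to 0.32. Their median was -0.10, and it was -0.0690 without Control replicate 2, -0.16 without Control replicate 3 and -0.0639 after quantile normalization was run again. Only Cox6a1 had an unadjusted limma p under 0.05, or 7.69% of those tested, near the 5.49% of all genes on the lower side. In 3 members (23.1%, against 13.1% of all genes) the groups did not overlap. These were Cox6a1, Cox7a2 and Cox7b, which are all widely expressed isoforms. The 5 widely expressed isoforms Cox6a1, Cox6b1, Cox7a2, Cox7b and Cox8a had lower KO means in 5 of 5 cases, with a median of -0.19. On single arrays their median was -0.22 in KO replicate 1 and -0.15 in KO replicate 2, against 0.04, 0.03 and -0.06 in Control replicates 1, 2 and 3. For the 3 heart and muscle isoforms it was 0.46 in KO replicate 1 and -0.24 in KO replicate 2, against 0.08, 0.18 and -0.25 in the Control arrays. The widely expressed forms were thus low in both KO arrays, while the heart and muscle forms were high in KO replicate 1 and as low in KO replicate 2 as in Control replicate 3. This difference between the isoforms was in 1 KO array. The exact test of the 3 isoform contrasts given next cannot give a p under 0.1 with these 5 arrays. No contrast could therefore pass 0.05, and the test does not decide whether the isoforms differ.

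**Figure D2:**
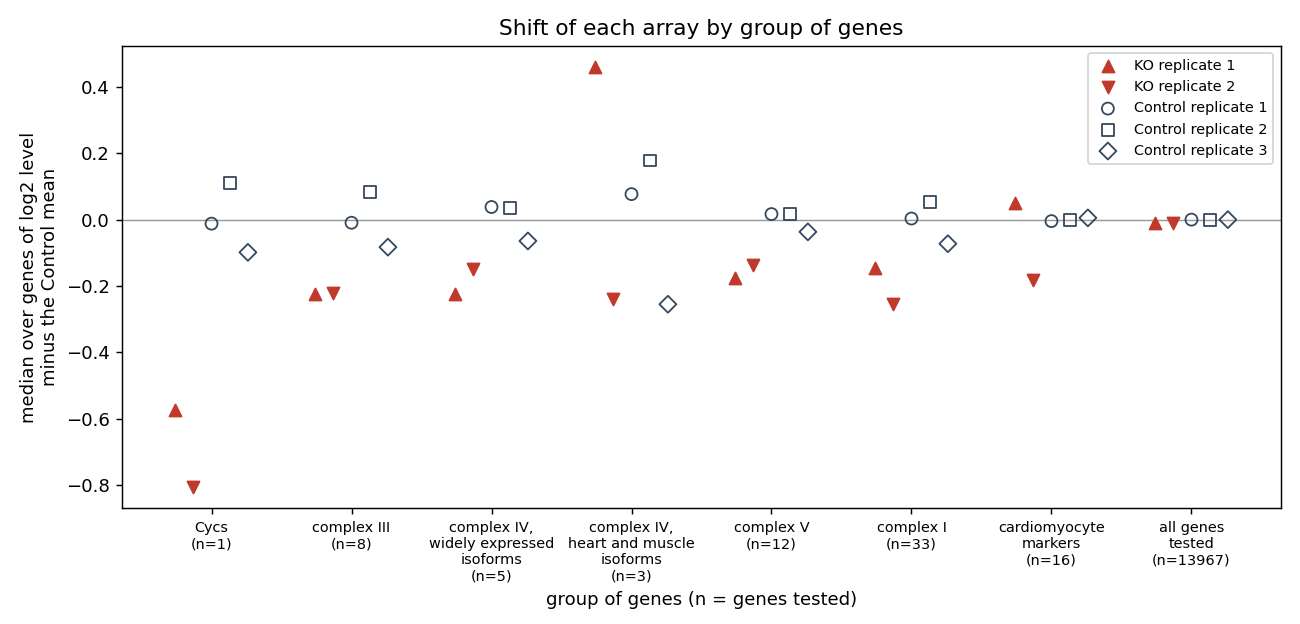
Median over the genes of a group of the log2 level minus the mean of the 3 Control arrays (vertical axis), for each of the 2 KO and 3 Control arrays, by group of genes (horizontal axis, with the number of genes tested). Both KO arrays lie below all Control arrays for Cycs, complexes III, V and I and the widely expressed isoforms of complex IV, while the heart and muscle isoforms are at 0.46 and -0.24 in the KO arrays.

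Subunit VIa regulates complex IV in response to ATP. Cox6a2, the heart and muscle form, had levels of 11.27 and 10.73 in the KO arrays, against 10.87, 10.87 and 10.68 in the Control arrays. Cox6a1, its widely expressed partner, had 11.70 and 11.77 in the KO arrays, against 11.96, 11.91 and 11.89 in the Control arrays. Cox6a1 was lower in both KO arrays (-0.19 ± 0.05, SE; limma adjusted p = 0.453), and Cox6a2 was higher in KO replicate 1 alone. The log2 value of Cox6a2 minus that of Cox6a1 was -0.43 and -1.04 in the KO arrays, against -1.09, -1.04 and -1.21 in the Control arrays. Its group difference was 0.38 (exact permutation test over the arrays, two-sided p = 0.1). With 10 ways to divide the arrays, 0.1 is the smallest p possible, and adjusted over the 3 isoform pairs it was 0.3. Without KO replicate 1 the difference was 0.08, and without KO replicate 2 it was 0.68.

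Subunit VIIa lies where complex IV meets complex III. Cox7a1, the heart and muscle form, had levels of 10.29 and 9.73 in the KO arrays, against 10.12, 10.22 and 9.79 in the Control arrays, so the KO arrays bracketed the Control range. Cox7a2 had 10.10 and 10.02 in the KO arrays, against 10.22, 10.22 and 10.12 in the Control arrays. Cox7a2l, a related protein that joins complexes III and IV into supercomplexes, had 6.81 and 6.55 in the KO arrays, against 6.76, 6.73 and 6.20 in the Control arrays. The contrast of Cox7a1 with Cox7a2 differed between groups by 0.09 (exact permutation p = 0.8, two-sided; adjusted 0.8). It turned to -0.14 without KO replicate 1 and to -0.00134 without Control replicate 3.

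Subunit VIII showed the widest spread among the members. Cox8b, the heart and muscle form whose promoter is given above, had levels of 8.25 and 7.12 in the KO arrays, against 7.59, 7.59 and 6.90 in the Control arrays. Cox8a had 10.31 and 10.65 in the KO arrays, against 10.78, 10.92 and 10.65 in the Control arrays. In KO replicate 1 Cox8b was the highest and Cox8a the lowest of the 5 arrays, and in KO replicate 2 both lay near Control replicate 3. The contrast of Cox8b with Cox8a differed between groups by 0.63 (exact permutation p = 0.4, two-sided; adjusted 0.6), by 1.36 without KO replicate 2 and by -0.11 without KO replicate 1. For Cox8b the 95% confidence interval of the difference, -0.90 to 1.55, leaves its direction unsettled. Cox8c was dim, with levels of 2.93 and 2.98 in the KO arrays, against 3.06, 2.98 and 2.98 in the Control arrays.

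**Figure D3:**
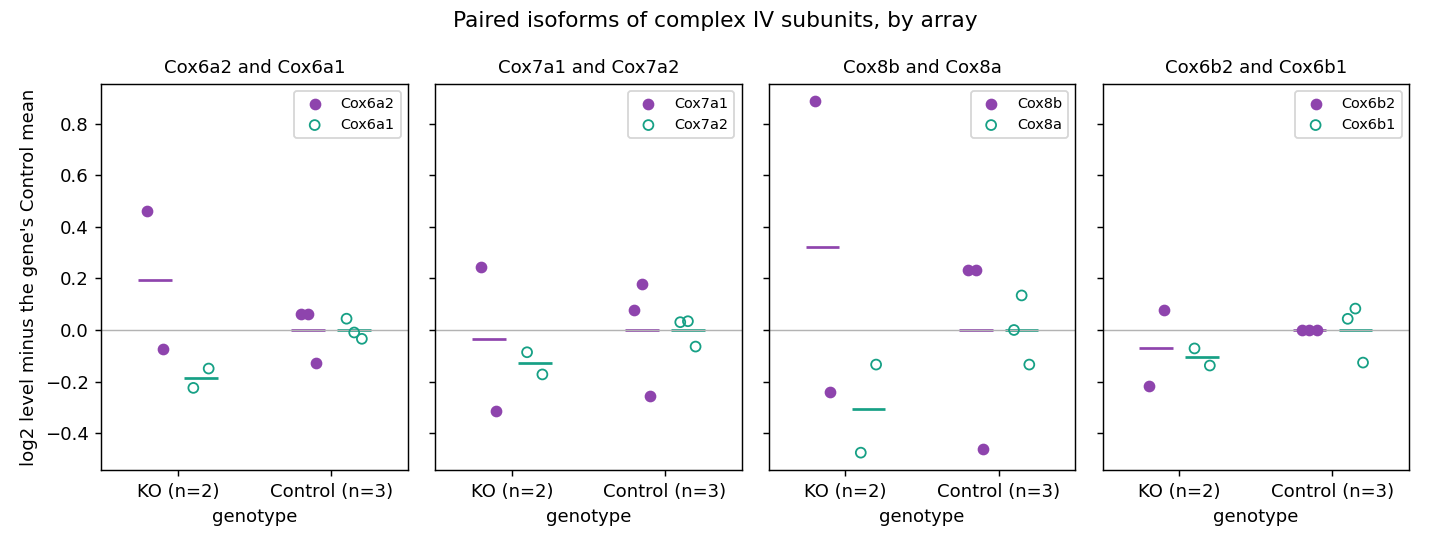
Log2 level minus the gene's own Control mean (vertical axis) for 4 pairs of complex IV isoforms, by genotype (horizontal axis), with a point for each array and a bar for the group mean; the heart, muscle or testis form is filled and the widely expressed form open. The KO points of Cox8b lie at 0.89 and -0.24, and those of Cox6a1 at -0.22 and -0.15.

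Among the remaining subunits of complex IV, Cox7b, encoded on the X chromosome, had levels of 6.86 and 6.40 in the KO arrays, against 7.20, 6.95 and 7.33 in the Control arrays. Its log2 difference of -0.53 ± 0.19 (SE; limma adjusted p = 0.57) was the second largest of the members, but it was -0.30 without KO replicate 2 and -0.76 without KO replicate 1. Without KO replicate 2, the differences of several members were larger, among them Cox8a (-0.48), Atp5md (-0.47) and Uqcrfs1 (-0.45). Its testis partner Cox7b2 was dim on all arrays, at 2.55 and 2.50 in the KO arrays, against 2.55, 2.55 and 2.58 in the Control arrays. Cox6b1, which clamps the 2 monomers of the enzyme together, had 10.54 and 10.47 in the KO arrays, against 10.65, 10.69 and 10.48 in the Control arrays. Cox6b2, its testis form, had 7.67 and 7.96 in the KO arrays, on either side of the Control value of 7.88, which was the same on all 3 arrays.

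The differences of Cox5b, Cox5a and Cox6c in complex IV ranged from -0.21 for Cox5b to -0.01 for Cox6c. Cox5b, which binds zinc, had levels of 6.03 and 5.83 in the KO arrays, against 6.22, 6.17 and 6.03 in the Control arrays. Cox5a differed by -0.13, by -0.0348 without KO replicate 1 and by -0.22 without KO replicate 2. Cox6c had 6.95 in both KO arrays, against 6.95, 6.95 and 6.98 in the Control arrays, and is the member with the smallest difference, -0.01, with a 95% confidence interval of -0.10 to 0.08. Identical values on different arrays recur in this table: 11 of the 34 tested members had the same value on 2 or more arrays, 7 of them in complex IV, against 54.8% of all genes tested.

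Complex V had lower KO means in 12 of its 12 tested members, with a median of -0.13, and in 8 of them (66.7%) the groups did not overlap. Of all genes tested, 55.2% had lower KO means and 13.1% had no overlap on the lower side. The median without KO replicate 2 was -0.18, and after centring each array Atp5b alone of the 12 changed sign. Atp5o had the smallest p of all members. It encodes OSCP, the protein that couples the catalytic head to the peripheral stalk and holds it still against the turning rotor. Its level was 10.17 and 10.25 in the KO arrays, against 10.61, 10.61 and 10.54 in the Control arrays. The log2 difference was -0.38 ± 0.05 (SE), a level 23.1% lower, with a 95% confidence interval of -0.51 to -0.25 and an adjusted p of 0.333 in limma. It ranked 45 of 13967 genes by p. The other tested stalk subunits, Atp5pb (subunit b) and Atp5j (coupling factor F6), differed by -0.17 and -0.12, and the groups of Atp5j overlapped. Atp5j differed by -0.0488 without KO replicate 1 and by -0.24 without Control replicate 3.

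In the membrane part of complex V, the groups did not overlap in any of the 4 genes, where 13.1% of all genes tested had no overlap on the lower side. Atp5md, which encodes DAPIT, a small protein of the dimer interface, had levels of 10.36 and 10.49 in the KO arrays, against 10.89, 10.94 and 10.66 in the Control arrays. Its difference was -0.41 ± 0.11 (SE; limma adjusted p = 0.474), the largest in the complex, although without KO replicate 1 it was -0.34, as was that of Atp5o. Atp5g3, 1 of the genes for the subunit of the proton-driven c-ring, had 11.38 and 11.43 in the KO arrays, against 11.55, 11.53 and 11.66 in the Control arrays. Atp5k (subunit e, of the dimer interface) and the small proteolipid gene Atp5mpl differed by -0.14 and -0.09.

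The smallest difference of complex V was in its catalytic head. Atp5b, the beta subunit that forms ATP, had levels of 11.64 and 11.52 in the KO arrays, against 11.57, 11.56 and 11.66 in the Control arrays. Its difference was -0.01, with a 95% confidence interval of -0.18 to 0.16, and it turned to 0.01 when each array was centred. Atp5c1, the gamma subunit of the rotor, had 6.83 and 6.74 in the KO arrays, against 6.94, 6.83 and 6.83 in the Control arrays. Atp5e, the epsilon subunit, had 11.62 and 11.59 in the KO arrays, against 11.81, 11.81 and 11.70 in the Control arrays, and a difference of -0.17 ± 0.05 (SE; limma adjusted p = 0.524). Atp5a1 (alpha) differed by -0.11, and by -0.0620 without KO replicate 2. Atp5d (delta) differed by -0.12, and by -0.0312 without KO replicate 1. Over the 5 genes of the head and central stalk the median was -0.11, against -0.17 over the 3 peripheral stalk genes and -0.16 over the 4 membrane genes. In KO replicate 1 the medians of head and membrane genes were -0.0620 and -0.20, and in KO replicate 2 they were -0.13 and -0.12. The sectors were not tested against each other.

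**Figure D4:**
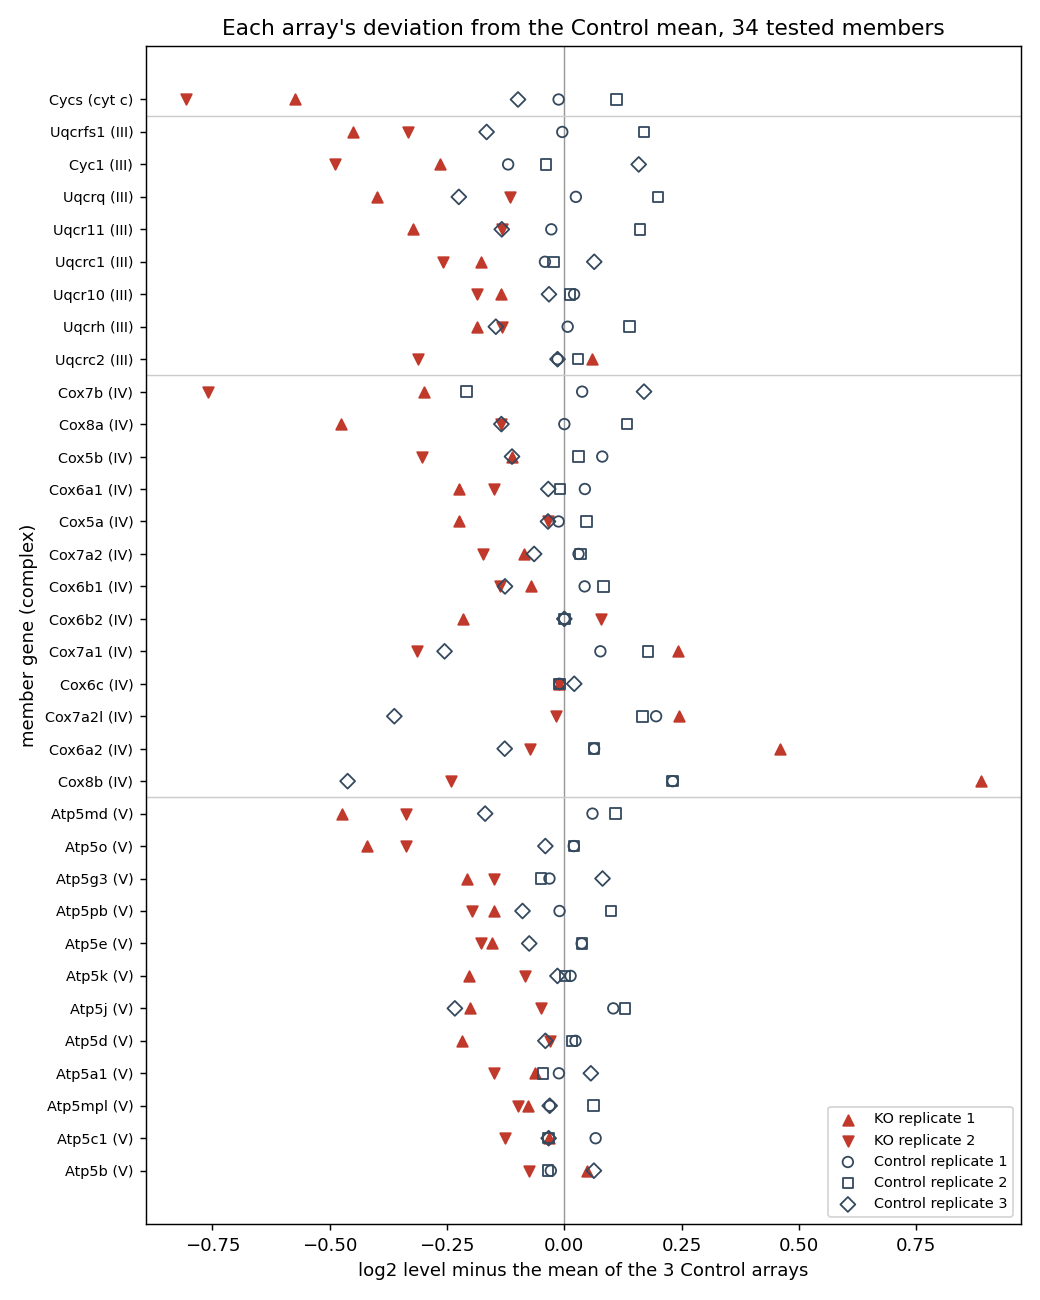
Log2 level minus the mean of the 3 Control arrays (horizontal axis) for each of the 34 tested members (vertical axis, grouped by complex and ordered by log2 difference), with filled triangles for the KO arrays and open symbols for the Control arrays. Cycs, Cox7b and Atp5o lie to the left in both KO arrays, and Cox6a2, Cox7a1 and Cox8b are split, with KO replicate 1 on the right.

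The KO arrays differed from each other by more than the range of the Control arrays in 13 of the 34 members. KO replicate 1 lay below every Control array in 23 members and KO replicate 2 in 22. These 3 counts were not made over all genes, so they describe the members only. Below the Control mean were 28 members in KO replicate 1 and 33 in KO replicate 2. Over all 13967 genes tested, 7420 and 7468 were. The largest gaps, KO replicate 1 minus KO replicate 2, were 1.13 for Cox8b, 0.56 for Cox7a1 and 0.53 for Cox6a2, the 3 heart and muscle isoforms, followed by 0.46 for Cox7b. The markers of cardiomyocytes had a median shift of 0.05 in KO replicate 1 and -0.18 in KO replicate 2, against -0.00447, -0.00231 and 0.00529 in Control replicates 1, 2 and 3. The summed level of those 16 markers was 15.46 to 15.64 in the KO arrays, against 15.58 to 15.59 in the Control arrays, on the log2 scale. Endoderm markers were high only in KO replicate 2, with 12 of 16 of them tested. The heart and muscle isoforms were high in KO replicate 1. That array also had the high white blood cell and endothelial sums and the low mesenchyme sum given above. Tyrobp, a white blood cell gene, was at 7.65 there, against 5.09 in KO replicate 2 and 4.85 to 5.09 in the Control arrays. Not all markers went with their sums. In KO replicate 1, 2 of 7 tested white blood cell genes and 3 of 8 endothelial genes were below the Control mean. C1qa (4.85) and Eng (8.33) were at their lowest on that array. The summed level of the 7 erythroid markers was 13.39 and 13.58 in the KO hearts, against 13.78, 13.32 and 14.09 for Control replicates 1, 2 and 3. Control replicate 3 was the lowest Control array in 23 of the 34 members, against 4801 of all 13967 genes tested. The part of these levels in the differences was not tested. Without KO replicate 2 the median over the members was -0.18, and without KO replicate 1 it was -0.15.

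Most assembly genes of these complexes also had lower KO means, and the regulators were divided. The lists were chosen with earlier results of these data known. Of all genes tested, 55.2% had lower KO means and 5.49% were lower at an unadjusted limma p under 0.05. Among 25 tested assembly factors of complex IV, 21 (84%) had lower KO means, with a median of -0.15, 4 (16%) at an unadjusted limma p under 0.05. The 3 with the smallest p were Cox10, which makes the haem precursor of the enzyme (-0.33 ± 0.06, SE), Cmc2 (-0.66 ± 0.13) and Coa3 (-0.31 ± 0.07). Of the 4 with higher KO means, Higd1a, a small inner membrane protein named here after its values were seen, had the largest difference. It had levels of 9.19 and 8.11 in the KO arrays, against 7.49, 7.73 and 7.97 in the Control arrays, a log2 difference of 0.92 ± 0.38 (SE; limma adjusted p = 0.57). The 6 tested assembly factors of complex III all had lower KO means, with a median of -0.16 and 0 at that p. The 5 tested genes for assembly and inhibition of complex V were all lower, 2 of them at that p, Tmem242 (-0.23) and Tmem70 (-0.31), both assembly factors of the rotor ring. Of 13 tested transcription factors and other regulators of respiratory genes, 7 were lower, with a median of -0.03 and 0 at that p. These 7 are 53.8%, near the share of all genes. The smallest p-values among them belonged to Polrmt, the mitochondrial RNA polymerase (-0.33), Esrrg (-0.42) and Tfb1m (0.11). Ppargc1a, the coactivator of mitochondrial biogenesis, had 9.08 and 8.39 in the KO arrays, against 8.77, 8.77 and 8.75 in the Control arrays.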

How the data were processed

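Expression was measured on Affymetrix arrays of total RNA, 2 of KO and 3 of Control hearts. The deposited values are log2 levels, made by the authors with Affymetrix Expression Console and RMA per the submitters' processing notes; versions, settings and genome build were not stated there. Because RMA gives all arrays the same distribution, a change common to all genes would not be seen, and probes shared with processed pseudogenes could not be examined.

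Of the 24479 probe sets, the platform annotation names 23281 with 1 symbol, and 1198 unnamed ones were left out. The brightest set of a gene was kept. Genes with a mean under the 40th percentile (4.44) were left out, which left 13967. KO was compared with Control in limma 3.58.1 (run in R 4.3.3) with lmFit, eBayes, two-sided p-values and no covariate, with Benjamini-Hochberg adjustment over all genes tested and thresholds of 0.05. Isoform pairs were compared by an exact permutation test over the arrays. Medians and counts of a list carry no test. The steps were tested on simulated data. The number of arrays limits the precision.

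Members and lists were chosen with earlier results of these data known. Values on every array are given for Cyc1, Cycs, the up to 4 members of each complex with the smallest p, the 2 with the smallest difference, and the isoform families. The 3 assembly or regulatory genes with the smallest p were named, where a list is described. The division of complex V into sectors and the promoter motifs were added after the values were seen. Alternatives changed the filter, the variance prior, array weights, normalization, centring, probe set averaging, genes with tied values and the arrays included.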

Additional observations from a re-analysis of the deposited data

How the results depend on the processing

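The lower median of the members kept its sign under every alternative run, between -0.18 and -0.12 over all members, and so did the medians of complexes III, IV and V and the value of Cycs, which was not tested above the 60th percentile. The median of complex IV was -0.0639 after quantile normalization again and -0.16 to -0.0690 when each array was left out in turn. The median of complex V was -0.10 after quantile normalization again and -0.18 to -0.12 when each array was left out in turn. Members lower at an unadjusted p under 0.05 numbered 11, 7 after centring each array, 6 without genes that have tied values (23 members tested), and 6 to 14 with an array left out, where 3.19% to 14.7% of all genes were; those higher numbered 0 to 1. Calls over all genes were 0, 7 without tied genes and 0 to 983 with an array left out, and members called were 0 to 3, the 3 being Atp5k, Atp5o and Cox6b2 without KO replicate 2. With 1 KO array left, that array is assumed to vary like the Control arrays. The isoform contrast was 0.0759 to 0.68 for Cox6a2 over Cox6a1, -0.14 to 0.33 for Cox7a1 over Cox7a2 and -0.11 to 1.36 for Cox8b over Cox8a. With an array left out, the difference moved by over 1.5 times in 14 members and reached or crossed 0 in 8, and the other 12 stayed within 1.5 times. It crossed 0 for Atp5b (-0.0755 to 0.0488), Cox7a2l (-0.0682 to 0.24), Cox7a1 (-0.31 to 0.24), Cox6a2 (-0.0737 to 0.46), Cox6b2 (-0.22 to 0.0773), Cox8b (-0.24 to 0.89) and Uqcrc2 (-0.31 to 0.0583). Array weights turned Atp5b to 0.00719 and Cox7a2l to -0.0067, quantile normalization turned Cox6c to 0.0139 and Cox7a1 to 0.0136, and centring turned Atp5b to 0.00578 and Cox6c to 0.00855; the cause was not tested. No paired analysis was possible because the labels give the samples no numbers shared between the groups. Background over single probes could not be judged.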
